A study of Homo sapiens with 4 samples.

Results

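Secretory products of endometrial epithelium are described here on arrays of 2 endometrial cancer cell lines in which Efp was silenced. The group holds 10 genes out of 18417 measured: SCGB1D2, SCGB2A1, MSMB, PAEP, LTF, WFDC2, TFF3, AGR2, MUC1 and CA12, and each had 1 probe set. They are listed products and hormone-responsive genes of this epithelium, and the list was chosen by measured values, namely that SCGB1D2 was higher and MSMB and CA12 were lower with siEfp in Ishikawa cells and that AGR2 was higher with siEfp in HEC-1A cells. Those differences are therefore given as a description, without a test. The difference between the cell lines was not itself used in the choice, but the signals that chose SCGB1D2, MSMB, CA12 and AGR2 enter it.

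The 4 groups had 1 array each: Ishikawa cells given siRNA against Efp (siEfp), Ishikawa cells given control siRNA (siControl), HEC-1A cells given siEfp and HEC-1A cells given siControl. Both lines come from endometrial adenocarcinomas, Ishikawa from a well-differentiated and HEC-1A from a moderately differentiated tumor, and Ishikawa cells are ERα-positive whereas HEC-1A cells are ERα-negative. Both were grown in medium with fetal bovine serum, and no estrogen or progestin was named as an addition for the arrays. For Ishikawa the methods name the duplex siEfp #A and RNA taken at 48 h, while the sources used here give neither for HEC-1A. Efp is a ubiquitin ligase, and its mRNA is that of TRIM25. TRIM25 was lower with siEfp in both lines, at 7.96 with siEfp against 9.42 with siControl in Ishikawa cells and at 7.93 against 9.50 in HEC-1A cells (log2 RMA signal). ERα mRNA (ESR1) followed the stated receptor status. Its mean signal over 2 probe sets was 6.65 and 6.91 in Ishikawa (siEfp and siControl) and 4.77 and 4.45 in HEC-1A cells. The size differed between the probe sets. One read 8.22 and 8.58 in Ishikawa against 5.02 and 4.32 in HEC-1A cells, the other 5.08 and 5.24 against 4.53 and 4.59. The progesterone receptor gene PGR lay between 3.22 and 3.26 on all 4 arrays, below the background percentile that is described further on.

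As background, the glands of the endometrium release proteins into the uterine lumen, and the mix changes over the menstrual cycle, since estrogen and progesterone act on the epithelium. Secretoglobins are small proteins that pair into dimers and bind hydrophobic molecules, trefoil factors protect mucosal surfaces, and mucins coat them. AGR2 is a disulphide isomerase of the endoplasmic reticulum that helps mucins to fold. Several of these products are also used as tumor markers, among them WFDC2 (HE4) and MUC1.

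The signal of a gene is on a log2 scale, so that a difference of 1 is 2-fold, and signals of different genes are not compared with each other, since probes differ in brightness. As a guide to background, 341 olfactory receptor genes, which these cells are not known to use, had a 95th percentile of 4.77 and 4.89 on the Ishikawa arrays (siEfp and siControl) and of 4.65 on each HEC-1A array. Of the 10 genes, 7 were above that percentile on all 4 arrays, SCGB1D2 and LTF on 2 of the 4, and MSMB on 0.

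**Figure D1:**
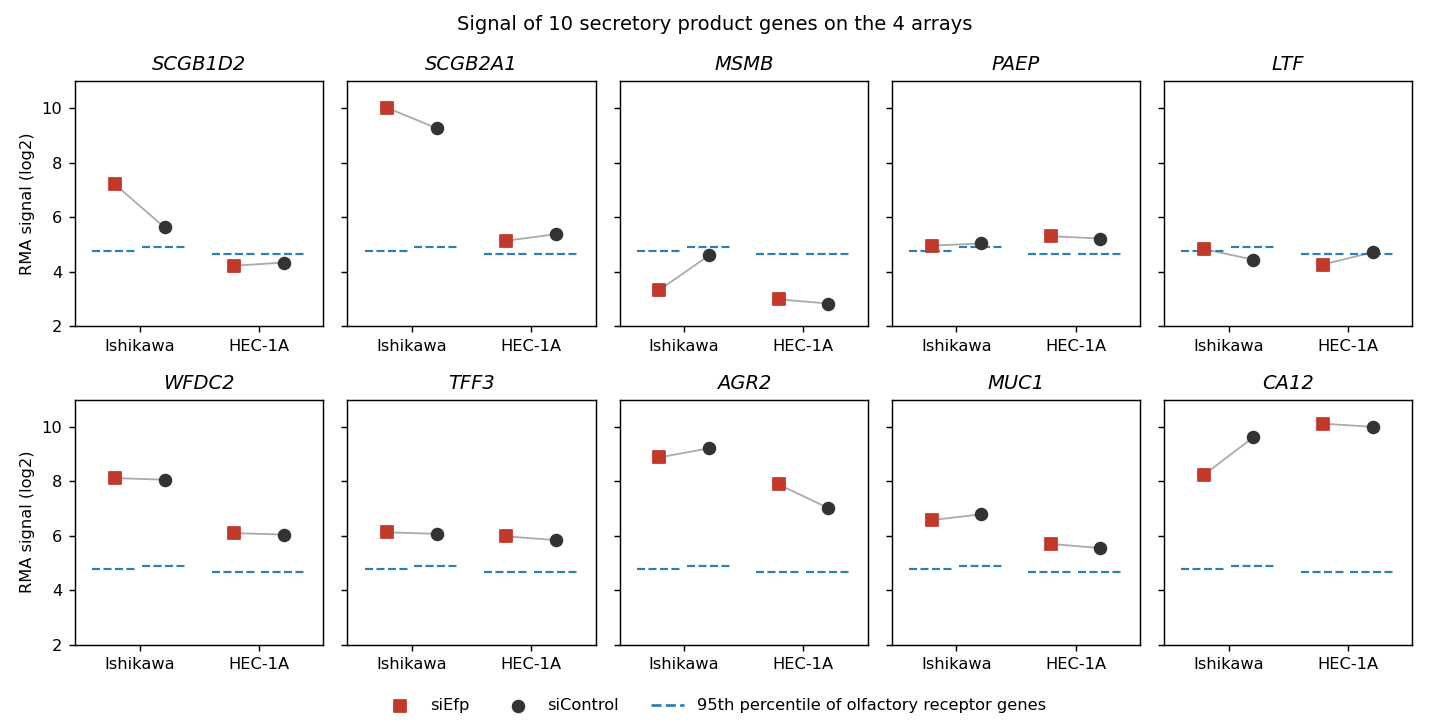
Signals of the 10 genes (y axis, log2 after RMA), 1 panel each, on the 4 arrays; red squares are siEfp, black circles siControl, grey lines join the arrays of a cell line, and blue dashes mark the 95th percentile of olfactory receptor genes on the same array. SCGB1D2 and SCGB2A1 stand higher with siEfp in Ishikawa cells alone, CA12 and MSMB stand lower there, and AGR2 stands higher with siEfp in HEC-1A cells.

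Both secretoglobins of the group were higher with siEfp in Ishikawa cells and not in HEC-1A cells. SCGB1D2, also called lipophilin B, had a signal of 7.20 with siEfp against 5.63 with siControl in Ishikawa cells, and of 4.22 against 4.33 in HEC-1A cells. Thus the difference was 1.58 in Ishikawa cells, or 2.99-fold, and -0.12 in HEC-1A cells. Of all 18417 genes, SCGB1D2 ranked 2 from the highest difference in Ishikawa cells. SCGB2A1, mammaglobin B, had a signal of 10.01 with siEfp against 9.27 with siControl in Ishikawa cells and of 5.13 against 5.37 in HEC-1A cells. Its difference was 0.75 in Ishikawa cells, or 1.68-fold, which ranked 98 from the highest, and -0.24 in HEC-1A cells. The 500 genes with a signal closest to that of SCGB1D2 in Ishikawa cells had a middle 95% of differences between -0.72 and 0.56. For those closest to SCGB2A1 it lay between -0.64 and 0.51. Both genes lay outside the range of genes of like signal, though SCGB1D2 was chosen by its difference. In HEC-1A cells both lay inside it. With 1 array per condition no difference between siEfp and siControl has a replicate check, and fewer cells that express a gene cannot be told apart from less RNA per cell.

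SCGB2A1 and SCGB1D2 lie next to each other in a cluster on chromosome 11, in the order SCGB1D1, SCGB2A1, SCGB1D2, SCGB2A2 and SCGB1D4, followed by ASRGL1 and SCGB1A1. The other secretoglobins of the cluster differed less in Ishikawa cells. SCGB1D1, a paralog of SCGB1D2, had signals of 5.07 with siEfp and 4.69 with siControl in Ishikawa cells, a difference of 0.38, and signals of 4.45 and 4.26 in HEC-1A cells. The differences in Ishikawa cells were -0.12 for SCGB2A2, mammaglobin A, -0.02 for SCGB1D4 and 0.21 for SCGB1A1, uteroglobin. ASRGL1, an asparaginase, was named for its place after the values had been seen, and had a difference of 0.27. Binding of probes to more than 1 of these paralogs was not tested.

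**Figure D2:**
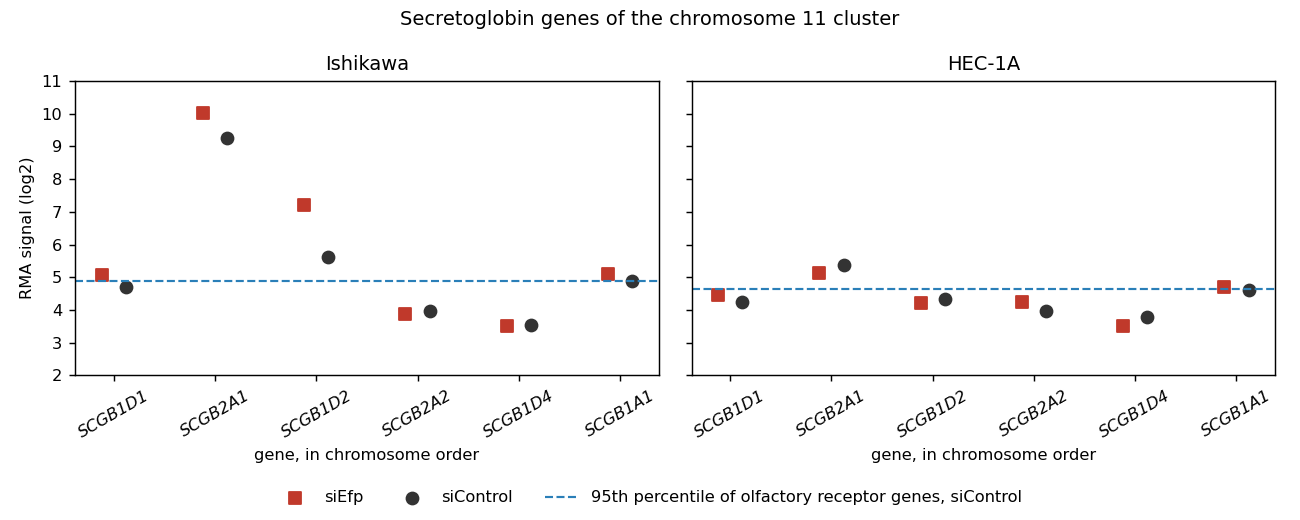
RMA signal (y axis, log2) of 6 secretoglobin genes in their order along chromosome 11 (x axis, not to scale, ASRGL1 not drawn) in Ishikawa and HEC-1A cells; red squares are siEfp, black circles siControl, and the blue dashed line is the 95th percentile of olfactory receptor genes on the siControl array. SCGB2A1 and SCGB1D2 stand above the line on both Ishikawa arrays and higher with siEfp, SCGB2A2 and SCGB1D4 stay below it, and in HEC-1A cells SCGB2A1 stands above it.

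Because these neighbours were higher together in Ishikawa cells, their promoters are shown, followed by those of AGR2 and CA12, whose differences chose the group too. The windows hold 250 bases before and 50 bases after the start site and are credited to RefSeq (GRCh38.p14), which gave a window for 8 of the 10 genes. SCGB1D2 is chr11:62241989-62242288 (plus strand), SCGB2A1 is chr11:62208423-62208722 (plus strand), AGR2 is chr7:16804950-16805249 (minus strand) and CA12 is chr15:63381797-63382096 (minus strand). Each is printed in the direction of its gene, and capitals mark matches on either strand to GGTCA, a half-site of the estrogen response element (its reverse complement is TGACC), or to AAATAG, letters like those of a TATA box that were chosen after the windows had been read.
SCGB1D2: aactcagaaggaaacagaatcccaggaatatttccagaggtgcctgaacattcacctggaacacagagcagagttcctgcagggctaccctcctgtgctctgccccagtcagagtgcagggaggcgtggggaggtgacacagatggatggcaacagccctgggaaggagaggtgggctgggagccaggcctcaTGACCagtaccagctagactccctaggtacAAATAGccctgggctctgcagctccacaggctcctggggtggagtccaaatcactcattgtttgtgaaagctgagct
SCGB2A1: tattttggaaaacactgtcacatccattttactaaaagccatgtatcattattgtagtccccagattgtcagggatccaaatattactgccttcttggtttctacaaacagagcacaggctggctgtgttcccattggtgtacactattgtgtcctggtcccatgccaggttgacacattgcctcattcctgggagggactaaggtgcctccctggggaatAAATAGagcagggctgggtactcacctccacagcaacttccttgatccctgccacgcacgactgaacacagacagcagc
AGR2: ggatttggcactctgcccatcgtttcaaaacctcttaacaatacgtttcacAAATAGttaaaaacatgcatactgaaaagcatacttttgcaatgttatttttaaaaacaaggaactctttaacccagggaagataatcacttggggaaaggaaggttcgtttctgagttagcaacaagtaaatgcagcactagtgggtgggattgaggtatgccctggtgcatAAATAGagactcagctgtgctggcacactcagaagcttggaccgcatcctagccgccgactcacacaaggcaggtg
CA12: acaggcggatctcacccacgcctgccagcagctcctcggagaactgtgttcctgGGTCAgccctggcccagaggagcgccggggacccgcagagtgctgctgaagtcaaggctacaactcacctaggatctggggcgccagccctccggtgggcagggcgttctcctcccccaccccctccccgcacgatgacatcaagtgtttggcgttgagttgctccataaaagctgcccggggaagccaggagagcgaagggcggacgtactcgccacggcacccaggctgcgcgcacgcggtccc

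In the SCGB1D2 window the half-site letters TGACC start at -57 and AAATAG starts at -27 from the start site, and in the SCGB2A1 window AAATAG starts at -29. In the AGR2 window AAATAG starts at -26 and again at -199, and in the CA12 window GGTCA starts at -196. Over 35116 windows of the same length, 37.4% held the half-site and 11.5% held AAATAG on either strand. TATAAA (11.5% of windows), AGAACA (14.8%), a half-site of the progesterone and glucocorticoid receptors, and TGACTCA (4.95%), the AP-1 site, were searched too and were not matched in these windows. The windows of both secretoglobins were poor in CpG, with 1 in SCGB1D2 and 2 in SCGB2A1, and that of AGR2 held 6, whereas CA12 had 22, against a median of 14 over all windows. These matches describe letters and are not binding sites.

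CA12 and MSMB were at least 2-fold lower with siEfp in Ishikawa cells. CA12, a carbonic anhydrase of the cell surface, had a signal of 8.23 with siEfp against 9.62 with siControl in Ishikawa cells, a difference of -1.39, or 2.61-fold lower. In HEC-1A cells its signals were 10.11 with siEfp and 10.00 with siControl, a difference of 0.12. It ranked 36 from the lowest difference in Ishikawa cells, and genes of like signal had a middle 95% between -0.81 and 0.47. MSMB, β-microseminoprotein, a small secreted protein best known from the prostate, had a signal of 3.32 with siEfp against 4.59 with siControl in Ishikawa cells, a difference of -1.27, and signals of 2.98 and 2.83 in HEC-1A cells, a difference of 0.15. All 4 of its signals were below the background percentile, so the difference stands among dim signals. Genes as dim as MSMB had a middle 95% of differences between -0.43 and 0.51 in Ishikawa cells. The Ishikawa differences of CA12 and MSMB chose these genes, so the ranges beside them are a description.

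AGR2 was the gene of the group with the largest difference in HEC-1A cells. Its signals there were 7.88 with siEfp and 7.02 with siControl, a difference of 0.87, or 1.82-fold, which ranked 42 from the highest of all genes. In Ishikawa cells it went the other way, at 8.88 with siEfp against 9.21 with siControl, a difference of -0.33. Genes of like signal had a middle 95% between -0.69 and 0.49 in HEC-1A cells and between -0.87 and 0.50 in Ishikawa cells. Only the HEC-1A value lay outside, and it is the value that chose AGR2. AGR3, its paralog and neighbour on chromosome 7, did not follow it, with signals of 2.78 with siEfp and 3.28 with siControl in HEC-1A cells and of 5.55 and 5.51 in Ishikawa cells, and both HEC-1A signals lay below the background percentile. TXNDC12, another member of this isomerase family, was lower with siEfp, at 9.98 against 11.24 in Ishikawa cells and at 10.77 against 11.35 in HEC-1A cells, with differences of -1.26 and -0.58.

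The remaining products differed little between siEfp and siControl. WFDC2, of the whey acidic protein family, was at 8.11 with siEfp and 8.05 with siControl in Ishikawa cells and at 6.09 and 6.04 in HEC-1A cells, a difference of 0.06 in each line. TFF3, a trefoil factor of mucosal surfaces, was at 6.12 and 6.07 in Ishikawa cells and at 5.97 and 5.84 in HEC-1A cells. MUC1, a membrane-bound mucin, was at 6.57 and 6.78 in Ishikawa cells and at 5.70 and 5.54 in HEC-1A cells. None of these stood apart from genes of like signal in either line. PAEP, glycodelin, a progesterone-regulated lipocalin of secretory endometrium, was at 4.95 and 5.03 in Ishikawa cells and at 5.30 and 5.21 in HEC-1A cells. LTF, lactoferrin, an iron-binding protein that estrogen induces in the uterus of mice, was at 4.83 and 4.43 in Ishikawa cells and at 4.26 and 4.71 in HEC-1A cells, with differences of 0.39 and -0.45. Its values crossed the background percentile, being above it with siEfp in Ishikawa cells and with siControl in HEC-1A cells. All of these differences lay inside the middle 95% of genes of like signal, and LTF in HEC-1A cells was nearest to the edge (-0.46).

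At a 2-fold difference, 1 of the 10 genes was higher and 2 were lower with siEfp in Ishikawa cells, where 0.136% and 0.804% of all genes were higher and lower. In HEC-1A cells 0 of the 10 were higher and 0 lower, where 0.103% and 0.271% of all genes were. Since these differences chose the group, nothing is read from the counts. The median difference of the 10 genes was -0.01 in Ishikawa cells and 0.10 in HEC-1A cells, beside 0.01 in each line over all genes. The median size of the difference, whatever its sign, was 0.36 in Ishikawa cells and 0.14 in HEC-1A cells, beside 0.16 and 0.15 over all genes. The differences that chose SCGB1D2, MSMB, CA12 and AGR2 enter these medians, so nothing is read from them either.

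**Figure D3:**
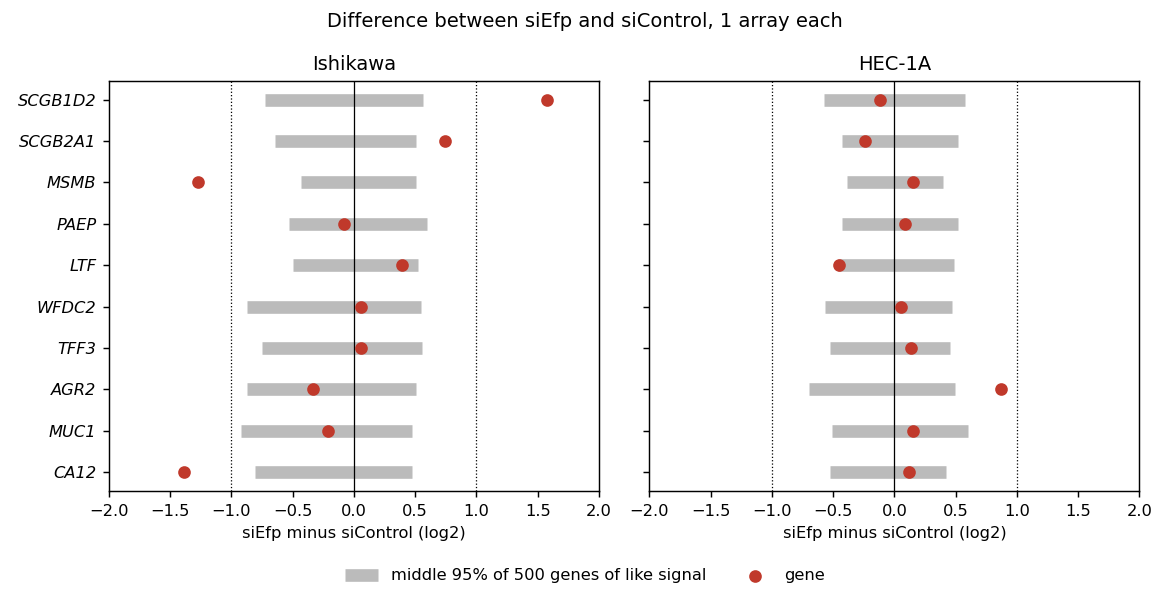
Difference between siEfp and siControl (x axis, log2, 1 array each) of the 10 genes in Ishikawa and HEC-1A cells. Red points are the genes, grey bars hold the middle 95% of the 500 genes of like signal, and dotted lines mark 2-fold. SCGB1D2 (1.58), SCGB2A1 (0.75), MSMB (-1.27) and CA12 (-1.39) lie outside their bars in Ishikawa cells and AGR2 (0.87) in HEC-1A cells. All of these values but that of SCGB2A1 were used to choose the genes.

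The cell lines themselves differed in most of these products, mainly with more in Ishikawa cells. limma was fitted over the 4 arrays and all 18417 genes with treatment as a term, and 6 of the 10 genes were called higher in Ishikawa cells and 1 lower at an adjusted p under 0.05 (Benjamini-Hochberg over all genes, two-sided). Over all genes 17.0% were called higher and 18.3% lower, so that a call between the lines was common. SCGB2A1 had the largest difference, 4.39 ± 0.23 (log2, SE, 2 arrays of each line), or 20.9-fold (adjusted p = 3.1e-05, limma). WFDC2 was higher by 2.02 ± 0.12 (adjusted p = 5.2e-05, limma), SCGB1D2 by 2.14 ± 0.35 (adjusted p = 0.0040, limma), AGR2 by 1.59 ± 0.26 (adjusted p = 0.0041, limma) and MUC1 by 1.06 ± 0.14 (adjusted p = 0.0016, limma). Both HEC-1A signals of SCGB1D2 were below the background percentile. With those signals raised to it, the mean of SCGB1D2 over both treatments was at least 3.39-fold higher in Ishikawa cells. That mean holds the siEfp signal that chose the gene, and between the siControl arrays alone the measured log2 difference was 1.29. MSMB was higher in Ishikawa cells by 1.06 ± 0.30 (adjusted p = 0.035, limma), all of it below the background percentile. CA12 was the exception in direction, with a difference of -1.13 ± 0.32 (adjusted p = 0.033, limma). For SCGB1D2, MSMB, CA12 and AGR2 the signals that chose them enter these means, so their p-values are not independent of the choice.

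The line difference is also given for each treatment, as a description from 1 array per condition, since the gap between both values equals that between the responses that chose SCGB1D2, MSMB, CA12 and AGR2. For CA12 it was -1.88 between the siEfp arrays and -0.38 between the siControl arrays, and for MSMB 0.34 and 1.77. For SCGB1D2 the corresponding values were 2.99 and 1.29, for AGR2 0.99 and 2.19, and for WFDC2 2.02 and 2.02. When treatment was left out of the fit, CA12 and MSMB were no longer called (adjusted p = 0.098 and 0.095, limma). The fit rests on 1 residual degree of freedom and takes the arrays of a line as its replicates, so its error holds the difference between the responses and not that between independent cultures.

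PAEP, TFF3 and LTF were not called between the lines. The interval of the difference was -0.56 to 0.04 for PAEP (adjusted p = 0.16, limma), -0.10 to 0.48 for TFF3 (adjusted p = 0.29, limma) and -0.34 to 0.64 for LTF (adjusted p = 0.66, limma). In 9 of the 10 genes, LTF being the exception, the Ishikawa arrays did not overlap the HEC-1A arrays, which was so for 62.7% of all genes. The order over the 4 arrays was Ishikawa siEfp, Ishikawa siControl, HEC-1A siEfp and HEC-1A siControl for WFDC2 and TFF3 from the highest, and for MUC1 and AGR2 Ishikawa siControl came before Ishikawa siEfp. Neighbouring arrays of 1 line have no replicate spread by which they could be told apart.

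**Figure D4:**
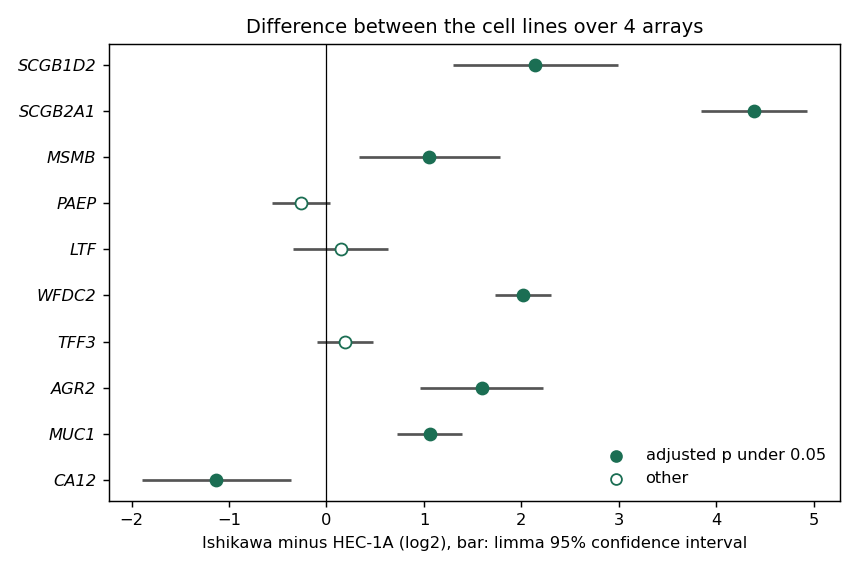
Difference between Ishikawa and HEC-1A (x axis, log2) of the 10 genes over the 4 arrays, with bars for the 95% confidence interval of limma (2 arrays of each line, treatment as a term). Filled points were called at an adjusted p under 0.05; 6 lie to the right of 0, CA12 lies to the left, and the open points of PAEP, TFF3 and LTF have intervals that hold 0.

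The responses of the lines were also set against each other gene by gene, as Ishikawa difference minus HEC-1A difference, which has no test with 1 array per condition. The values were 1.69 for SCGB1D2, 0.99 for SCGB2A1 and 0.85 for LTF, and on the other side -1.50 for CA12, -1.42 for MSMB, -1.20 for AGR2 and -0.36 for MUC1. PAEP (-0.16), TFF3 (-0.08) and WFDC2 (0.00) were near 0. Over all genes the middle 95% of this value lay between -0.66 and 0.63.

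Relatives of the 10 genes were taken from lists drawn up from general knowledge, and 1 of them, TXNDC12, differed 2-fold with siEfp. Over all genes 0.136% were 2-fold higher and 0.804% lower in Ishikawa cells, and 0.103% and 0.271% in HEC-1A cells. At such shares a count of 0 is usual in short lists and does not show that relatives lack a response. Beside SCGB1D2, 0 of 7 other secretoglobins measured were 2-fold higher or lower in either line, and their median differences were -0.02 in Ishikawa and 0.08 in HEC-1A cells. Beside WFDC2, 0 of 17 other genes with whey acidic protein or Kunitz inhibitor domains differed 2-fold, with medians of -0.01 and 0.02. Beside PAEP and LTF, 0 of 20 other lipocalins and transferrins did, with medians of 0.09 and -0.07, and beside MUC1, 0 of 14 other mucins, with medians of 0.07 and -0.01. Beside CA12, 0 of 13 other carbonic anhydrases did, with medians of -0.01 and 0.11. CA12 itself was chosen by its difference in Ishikawa cells, so its contrast with this family is not read as a result. Beside AGR2, MSMB and TFF3, 1 of 4 other trefoil and AGR genes was 2-fold lower, TXNDC12 in Ishikawa cells. Below 2-fold, some relatives differed more than the gene they stand beside, as SLPI (-0.69 in Ishikawa cells) beside WFDC2 and MUC6 (0.54) beside MUC1.

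Between the lines, relatives were called by limma in both directions. Of all genes, 17.0% were called higher in Ishikawa cells and 18.3% lower. SCGB1D1 (0.53) was the only one of the 7 other secretoglobins to be called with SCGB1D2 and SCGB2A1. Its signal was above the background percentile on the Ishikawa siEfp array alone. AGR3 (at least 1.84-fold higher in Ishikawa cells) was the only one of its list called beside AGR2 and MSMB. With WFDC2, 3 of its 17 relatives were called higher in Ishikawa cells and 0 lower, led by the protease inhibitor SPINT1 (2.70). While PAEP and LTF were not called, 2 of their 20 relatives were called higher, the retinol carrier RBP4 (at least 11.9-fold) and LCN2 (a log2 difference of 2.92), and 1 lower. With MUC1, 3 of 14 mucins were called higher, led by MUC20 (1.69), and MUC13, below the background percentile on both Ishikawa arrays, lower. With CA12, 5 of 13 carbonic anhydrases were called lower in Ishikawa cells, led by CA13 (-1.89), and CA8 (at least 1.68-fold) higher. The folds given as at least are for means over both treatments, with HEC-1A signals raised to the background percentile.

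Apart from the 10 genes, those of the hormonal and secretory setting showed no 2-fold difference with siEfp other than TRIM25 and, in HEC-1A cells, FGF18. Over all genes 0.136% were 2-fold higher and 0.804% lower in Ishikawa cells, and 0.103% and 0.271% in HEC-1A cells. FGF18, a growth factor, was at 8.34 with siEfp against 9.89 with siControl in HEC-1A cells. The median differences in Ishikawa and HEC-1A cells were 0.02 and -0.05 for 38 other genes of the secretory phase, 0.02 and -0.01 for 27 other estrogen-induced genes, 0.03 and -0.06 for 8 hormone receptors, 0.05 and -0.07 for 26 transcription factors of epithelial and secretory cells, and 0.05 and 0.11 for 57 genes of folding and translocation in the endoplasmic reticulum, where AGR2 acts. Between the lines, limma called 12 of the secretory-phase genes higher in Ishikawa cells and 10 lower. It called 13 of the estrogen-induced genes higher and 1 lower, and 4 of the receptors higher and 0 lower. Among these receptors was ESR1, by 2.17 as the mean over its probe sets. Of the transcription factors 11 were called higher and 6 lower, and of the folding genes 11 higher and 6 lower. Over all genes 17.0% were called higher and 18.3% lower.

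Markers of the labelled epithelial cells were present, but less so in HEC-1A cells. Over all 18417 genes, 12667 were above the background percentile on both Ishikawa arrays and 12923 on both HEC-1A arrays. Of 11 epithelial markers, 11 and 10 were above it. By limma 10 were called higher in Ishikawa cells, where 17.0% of all genes were, with a median difference of 2.37. CDH1, E-cadherin, was at 9.62 and 10.22 on the Ishikawa arrays (siEfp and siControl) and at 3.74 and 4.07 on the HEC-1A arrays, below the background percentile, whereas the keratin gene KRT18 was at 11.56 and 11.92 and at 11.73 and 11.77. The summed linear signal of this list was 15568 with siEfp and 17455 with siControl in Ishikawa cells and 6139 and 7317 in HEC-1A cells. Over all 18417 genes, 8772 were lower with siEfp in Ishikawa cells (0.804% of all genes 2-fold) and 8790 in HEC-1A cells (0.271% 2-fold). Of the 11 epithelial markers, 9 were lower with siEfp in Ishikawa cells (median -0.20) and 10 in HEC-1A cells (median -0.35), 0 of them 2-fold. The list thus moved both with the line difference of the secretory genes and with siEfp, and its part in either was not tested. Of 14 stromal, 8 endothelial and 13 immune markers, 5, 2 and 3 were above the percentile on both Ishikawa arrays and 5, 2 and 4 on both HEC-1A arrays. Their summed signals were 471, 201 and 310 with siEfp and 501, 176 and 297 with siControl in Ishikawa cells, and 464, 170 and 398 with siEfp and 486, 171 and 369 with siControl in HEC-1A cells. The defining genes PTPRC, PECAM1, DCN and LUM were below the percentile on all 4 arrays. Others of these lists were above it on all 4 arrays, among them COL1A1, ACTA2, CLDN5, CD68 and NKG7. Of 9 ciliated cell markers, 4 were above the percentile on both Ishikawa arrays and 5 on both HEC-1A arrays. FOXJ1, the master regulator of motile cilia, was at 7.12 and 6.57 in Ishikawa and at 5.33 and 5.26 in HEC-1A cells. It was called higher in Ishikawa cells together with CAPS, at 9.52 and 9.76 against 6.87 and 7.01. DNAI1, DNAH9 and RSPH1 were below the percentile on all 4 arrays. The summed signal of this list was 1065 and 1131 in Ishikawa cells and 326 and 339 in HEC-1A cells (siEfp and siControl). Bright genes such as CAPS weigh most in that sum.

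Genes whose pattern over the 4 arrays was most like that of the genes used in the choice were found by the distance between log2 signals centred on each gene's own mean. Closest to SCGB1D2 were COBLL1 at a distance of 0.29, ZNF32 at 0.63 and AKAP6 at 0.64. COBLL1 had signals of 8.69 with siEfp and 7.40 with siControl in Ishikawa cells and of 5.69 and 5.74 in HEC-1A cells. Closest to MSMB were MYD88 at 0.07, ANKRD22 at 0.10 and PKIA at 0.22, closest to CA12 were RFX5 at 0.32, ETS2 at 0.34 and SLC35F2 at 0.42, and closest to AGR2 were ZNF284 at 0.07, OR2B6 at 0.09 and ATF7IP2 at 0.11. ZNF284, OR2B6 and ATF7IP2, like ANKRD22 and PKIA, were below the background percentile on both HEC-1A arrays. OR2B6 is itself an olfactory receptor gene of that background, at 5.74 and 6.01 on the Ishikawa arrays (siEfp and siControl). All of these distances rest on 4 arrays and describe likeness alone.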

How the data were processed

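Total RNA of Ishikawa and HEC-1A cells given siEfp or siControl (1 array each, 150 ng labelled) was hybridised to Affymetrix arrays. Per the labels, the values the authors deposited are on the log2 scale, 1 for each probe set, from RMA in Affymetrix Expression Console. Software versions and a genome build were not given in the sources used here. Since RMA forces the arrays to one distribution, a change common to most genes is lost, and differences of dim probe sets are understated. The methods call the platform Human Exon 1.0 ST, but the probe set numbers match Human Gene 1.0 ST.

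From these values, the probe sets with exactly 1 gene symbol (19460 of 33297; 1754 had several and 12083 none) were averaged to 18417 genes. Of the 19460, 19429 had a gene ID in RefSeq GRCh38.p14, and 0 symbols changed. Array medians over probe sets lay between 5.63 and 5.69, and no depth exists for arrays, whose number limits the precision.

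siEfp minus siControl was taken per line without a test. The spread of 500 genes of like signal describes each difference. Ishikawa minus HEC-1A was fitted with limma 3.58.1 in R 4.3.3 (lmFit, eBayes) on all genes, and the fit was tested on simulated data. Other steps used Python 3.11.15, numpy 2.4.6, pandas 2.3.3 and matplotlib 3.10.9. The genes, lists and tests were chosen with earlier results of these data known. Named genes are the 10 genes, TRIM25, ESR1, PGR, up to 4 genes at each end of a list that differed 2-fold or were called, and the 3 genes closest in pattern to SCGB1D2, MSMB, CA12 and AGR2. Other genes were named after their values had been seen, as neighbours on the chromosome or as cell type markers. Where 1 line lay below the olfactory receptor percentile on both arrays, a lower bound was added after seeing the data. It is for the mean line difference over both treatments, with those signals raised to the percentile. Alternatives were median centring, a second quantile normalization, the brightest probe set, no dim genes, a 1.5-fold threshold, and for limma no treatment term, an intensity trend and other thresholds.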

Additional observations from a re-analysis of the deposited data

Results flagged for a closer look

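The direction of the difference between siEfp and siControl was opposite in the lines for 8 of the 10 genes, where 41.8% of all genes had opposite signs. It was 1.58 in Ishikawa and -0.12 in HEC-1A cells for SCGB1D2, 0.75 and -0.24 for SCGB2A1, and 0.39 and -0.45 for LTF. It was -1.39 and 0.12 for CA12, -1.27 and 0.15 for MSMB, -0.33 and 0.87 for AGR2, -0.21 and 0.15 for MUC1, and -0.078 and 0.084 for PAEP. These differences between the lines were not tested, since each condition had 1 array, and the first values of SCGB1D2, CA12 and MSMB and the second of AGR2 were used to choose the genes.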

How the results depend on the processing

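Without genes below the median signal, 4 of the 10 genes remained (SCGB2A1, WFDC2, AGR2 and CA12). Of these 0 were 2-fold higher with siEfp in Ishikawa cells, where 0.163% of all genes left were, 1 (CA12) was 2-fold lower, where 1.17% were, and 3 were called higher in Ishikawa than in HEC-1A cells, where 25.2% were. At a 1.5-fold threshold 2 were higher in Ishikawa cells (SCGB1D2 and SCGB2A1), where 1.49% of all genes were, and 1 (AGR2) in HEC-1A cells, where 1.34% were. Without a treatment term 0 were called lower in Ishikawa than in HEC-1A cells. In the siControl arrays alone LTF was lower in Ishikawa cells, at -0.28, against 0.15 over all arrays. The other counts stayed within 1.5 times under every alternative run, and all 34 values of the difference between the responses moved by less than the spread of genes of like signal. Over the 5 or 6 refits of each gene, the adjusted p of limma ranged from 0.0020 to 0.098 for CA12 and from 0.019 to 0.095 for MSMB, and the 5 other called genes stayed under 0.05. No paired analysis by replicate number was possible because each condition has 1 array and the labels give no such numbers. The treatment term pairs the lines by treatment, and the fit without it is given above. Dim signals limit what can be said of MSMB, LTF and, in HEC-1A cells, SCGB1D2.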
